A study of Mus musculus with 12 samples.

Results

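The genes described here are 9 genes of fatty acid uptake and mitochondrial fatty acid oxidation, taken by symbol from a retinal gene expression table of 53028 genes. They are Cd36, Ppara, Cpt1a, Cpt2, Acadvl, Acadl, Acadm, Hadha and Hadhb, and all 9 passed the expression filter that left 16486 genes for testing. The list holds mostly oxidation enzymes, with 1 uptake receptor and 1 transcription factor beside them. The genes were chosen by symbol, with the CPM levels of the 4 groups and earlier results of these data known, so the calls below describe each gene and are not independent support for a pattern of the list.

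The data are poly(A) RNA-seq of whole mouse retina, 12 libraries in 4 groups of 3. The groups were Pilrb1/2+/+ (wild type) and Pilrb1/2 -/- (knockout) at postnatal day 28 (P28), and the same genotypes at 12 months. The line was made by CRISPR editing of C57BL/6J zygotes and crossed to C57BL/6J for further generations. The series text speaks of deletion of Pilra as well as Pilrb1/2, whereas the sample labels name Pilrb1/2 alone. Nothing limits the deletion to a cell type, and the labels give neither the sex nor the animal behind a library, so p-values measure the spread between these libraries.

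Libraries held an estimated 14.7 to 25.9 M reads, if the most frequent low value of each library stands for a single read. On that assumption, 3 reads corresponded to 0.111 to 0.192 CPM (counts scaled to library size), a floor for counting error only. Pilrb1 and Pilrb2 were listed at 0 in 11 of 12 libraries each and could not show which libraries carry the deletion. Pilra ran from 0.133 to 0.17 CPM in P28 wild type and from 0.441 to 1.16 CPM in the P28 libraries labelled knockout. At 12 months its ranges overlapped near that floor, at 0.159 to 0.268 CPM in wild type and 0.0556 to 0.309 CPM in knockout. The genotype labels are therefore used as given and were not checked by expression. Retinal identity was clear, with 10 rod markers summing to 22300 to 43800 CPM. By Xist, 2 of 3 P28 knockout and 2 of 3 12-month wild-type libraries were female and all others male. Sex thus differed between the genotypes at each age, in opposite directions, and between the ages in each genotype. The sum of 10 lens markers was uneven, at 4890 CPM in P28 knockout library 2, 1740 and 603 CPM in P28 wild-type libraries 3 and 2, 660 CPM in 12-month knockout library 2, and at most 117 CPM in the other libraries.

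Long-chain fatty acids enter cells with the help of CD36 and are activated to acyl-CoA. CPT1 on the outer mitochondrial membrane turns acyl-CoA into acylcarnitine, a carrier exchanges it across the inner membrane, and CPT2 turns it back. Acyl-CoA dehydrogenases for very long (Acadvl), long (Acadl) and medium chains (Acadm) open each round of beta-oxidation, and the trifunctional protein, with an alpha subunit from Hadha and a beta subunit from Hadhb, completes it for long chains. PPAR-alpha, the nuclear receptor encoded by Ppara, is activated by fatty acids and drives transcription of many of these genes from repeats of the hexamer AGGTCA. The retina is best known for aerobic glycolysis, and photoreceptors can also burn fatty acids.

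All 9 genes had an upstream sequence in RefSeq (GRCm38.p6), taken as the 250 bases before the RefSeq start. That start can differ from the gene coordinates of the deposited tables. By those coordinates, the windows of Cd36, Cpt1a and Ppara lie wholly inside the gene, and those of Hadha, Hadhb and Cpt2 partly inside it. AGGTCA or its reverse complement TGACCT lay in 4 of 9, those of Cpt1a, Acadm, Acadvl and Cd36, against 14% of 32851 mouse upstream sequences of the same length. The GC box GGGCGG or CCGCCC lay in 7 of 9, against 32.7%, and CCAAT or ATTGG in 2 of 9, Cpt1a and Cd36, against 33.8%. These shares are not matched for GC content, which was 43.2 to 76.4% in the 9 windows, against a median of 52.4% over all. Hadha and Hadhb are counted separately, although their windows share most of their bases. The motifs do not overlap in letters. A match describes the letters only and is no measure of binding. Members with and without the hexamer passed in the comparisons below, in both directions, and a link between hexamer and change was not tested. The upstream sequences of the 4 genes with the hexamer are shown with it in capitals, 5′ to 3′ on the gene's strand.
Cpt1a, chr19:3323051-3323300, plus strand: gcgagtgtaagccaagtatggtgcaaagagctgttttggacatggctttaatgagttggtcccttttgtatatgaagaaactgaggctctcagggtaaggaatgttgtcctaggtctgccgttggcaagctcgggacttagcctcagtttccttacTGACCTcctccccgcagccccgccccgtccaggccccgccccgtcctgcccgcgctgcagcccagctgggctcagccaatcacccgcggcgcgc
Acadm, chr3:153944644-153944893, minus strand: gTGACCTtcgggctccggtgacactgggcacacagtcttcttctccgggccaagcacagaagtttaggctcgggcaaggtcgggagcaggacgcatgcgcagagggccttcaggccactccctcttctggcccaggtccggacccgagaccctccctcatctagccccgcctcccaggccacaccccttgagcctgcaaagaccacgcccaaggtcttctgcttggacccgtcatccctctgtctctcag
Acadvl, chr11:70015429-70015678, minus strand: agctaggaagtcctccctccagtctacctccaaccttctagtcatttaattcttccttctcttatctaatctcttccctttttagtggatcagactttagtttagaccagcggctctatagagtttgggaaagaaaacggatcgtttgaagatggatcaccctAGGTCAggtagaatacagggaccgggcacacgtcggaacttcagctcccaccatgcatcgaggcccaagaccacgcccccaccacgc
Cd36, chr5:17835897-17836146, minus strand: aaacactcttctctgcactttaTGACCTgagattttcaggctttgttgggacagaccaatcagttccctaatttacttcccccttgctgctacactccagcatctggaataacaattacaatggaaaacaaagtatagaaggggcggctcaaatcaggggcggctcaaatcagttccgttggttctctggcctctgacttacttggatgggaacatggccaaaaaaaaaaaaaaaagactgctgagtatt
The hexamer begins 94 bases before the RefSeq start of Cpt1a, 87 before that of Acadvl, 228 before that of Cd36 and 249 before that of Acadm.

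Hadha and Hadhb sit head to head on chromosome 5, Hadha on the minus and Hadhb on the plus strand. Their RefSeq starts, 30154980 and 30155253, leave 272 bases between them, and 228 bases fall in the 250-base upstream windows of both genes. By the deposited gene coordinates, Hadha reaches up to 30155162 and Hadhb begins at 30155248, so much of this stretch lies inside Hadha. The stretch is shown because the RefSeq windows of the pair share most of it and yet, as described below, their levels diverged at 12 months. It is given on the plus strand, from Hadha to Hadhb, with its 2 GC boxes in capitals, and its GC content is 60.3%.
Hadha to Hadhb, chr5:30154981-30155252, plus strand: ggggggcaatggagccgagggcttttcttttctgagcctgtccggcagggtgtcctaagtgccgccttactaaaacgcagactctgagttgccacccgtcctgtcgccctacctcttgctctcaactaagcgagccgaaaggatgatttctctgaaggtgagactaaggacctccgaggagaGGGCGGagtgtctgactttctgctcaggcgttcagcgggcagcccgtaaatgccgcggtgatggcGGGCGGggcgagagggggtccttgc

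Across the 4 groups, Cd36 and Acadm rose with age in both genotypes, while the genotype differences at 12 months went in different directions from gene to gene. In wild type, Cd36, Acadm and Cpt1a rose from P28 to 12 months, 3 of 9 genes and all upwards. Of all genes tested in that comparison, 5.4% passed, 3.65% higher and 1.75% lower (limma on log2(CPM + 1), Benjamini-Hochberg adjusted p under 0.05). In knockout, Cd36 and Acadm rose and Acadvl, Hadha and Ppara fell, 5 of 9, where 27.2% of all genes passed, 13.3% higher and 13.9% lower. Between genotypes at 12 months, Hadhb was higher and Acadvl and Cpt1a were lower in knockout, 3 of 9, where 39.6% of all genes passed, 16.1% higher and 23.5% lower, so the share of members called is no larger than that of the table. At P28, Cpt1a alone was higher in knockout, 1 of 9, where 1.49% of all genes passed, 1% higher and 0.491% lower. The median log2 fold change of the 9 genes was -0.01 between genotypes at P28 and -0.0039 at 12 months, and 0.11 and -0.20 with age in wild type and knockout. Over all tested genes these medians were -0.01, -0.03, 0.01 and -0.04. The knockout groups, and likewise the wild-type groups, enter more than 1 of these comparisons, so the comparisons are not independent.

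**Figure D1:**
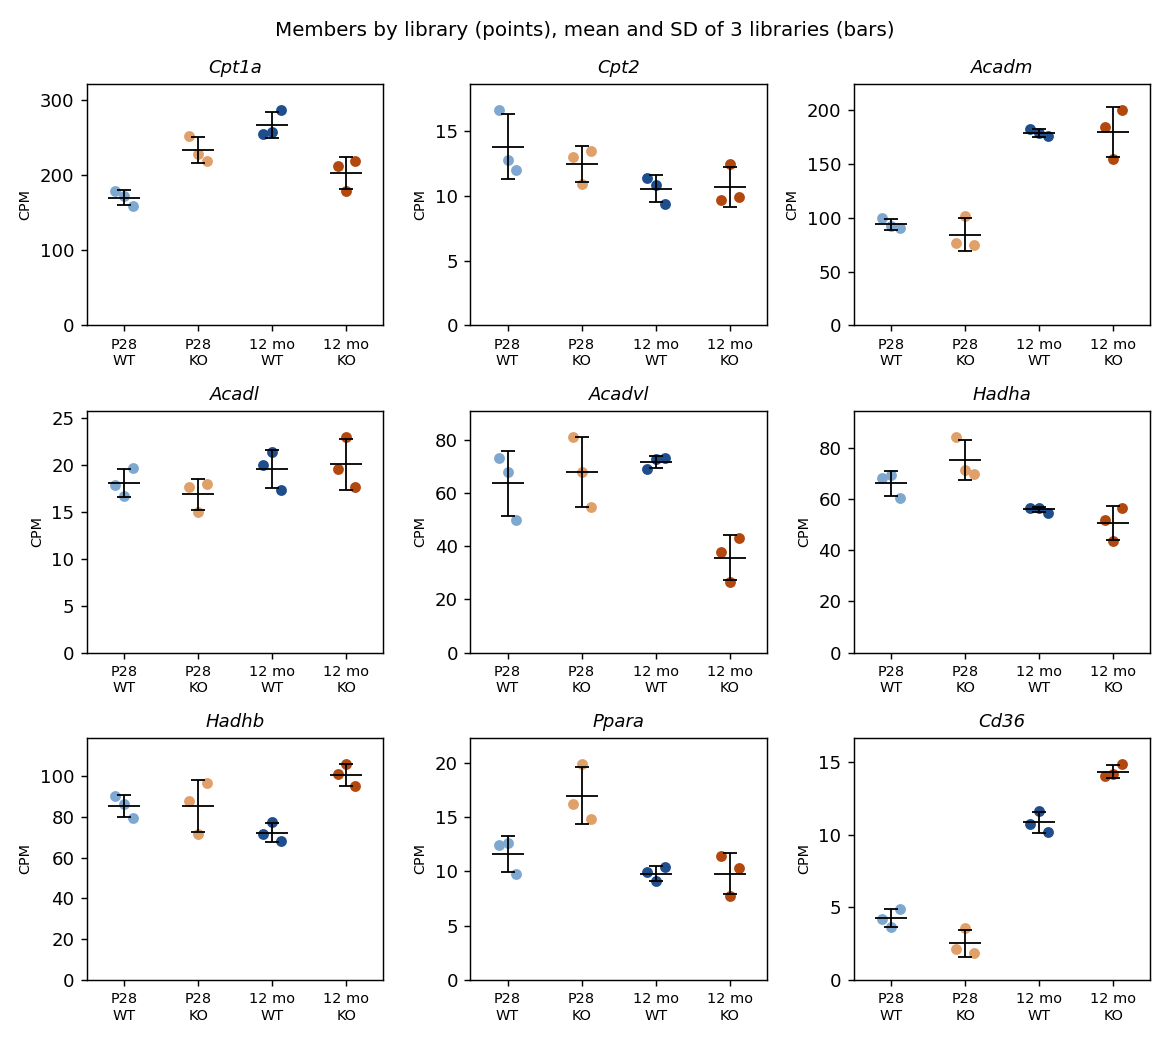
CPM of the 9 genes in each of the 12 libraries, 1 panel per gene with its own linear axis from 0. Points are libraries and horizontal bars are means with SD error bars (n = 3 per group; WT, wild type; KO, knockout). Cd36 and Acadm are higher in all 12-month libraries than in all P28 libraries, and the 3 12-month knockout libraries of Acadvl, at 26.3 to 42.9 CPM, lie below the 9 others.

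Cd36 (ENSMUSG00000002944, chromosome 5, 17781690 to 17888801, minus strand), the scavenger receptor that takes up long-chain fatty acids and oxidised lipids, changed most with age. It stood at 4.17, 3.65 and 4.91 CPM in the P28 wild-type libraries and at 10.7, 11.6 and 10.2 CPM at 12 months. In knockout it stood at 2.15, 3.57 and 1.84 CPM at P28 and at 14.0, 14.2 and 14.9 CPM at 12 months. All 6 libraries of 12 months lay above all 6 of P28, and the knockout libraries were the lowest at P28 and the highest at 12 months. Cd36 rose with age 2.56-fold in wild type (log2 fold change 1.18 ± 0.17, adjusted p = 0.00116) and 5.7-fold in knockout (2.16 ± 0.17, adjusted p = 9.63e-06; ± is the limma standard error, here and below). In whole-tissue RNA, a change in the number of cells and a change in RNA per cell cannot be told apart.

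Between genotypes, Cd36 did not pass at either age, although the libraries of the groups did not overlap. The log2 fold change of knockout against wild type was -0.60 ± 0.17 at P28 (adjusted p = 0.0854) and 0.38 ± 0.17 at 12 months (adjusted p = 0.0955). The difference between these effects was 0.97 ± 0.24 and did not pass (adjusted p = 0.069), although it did without P28 knockout library 2 (1.18, adjusted p = 0.0136) or 3 (0.84, adjusted p = 0.0363). Without P28 knockout library 2, the library with the highest lens sum, the P28 difference was -0.80 and passed (adjusted p = 0.00855). The 12-month value depended on the processing, since it passed with a pseudocount of 5 (adjusted p = 0.0316), with quantile normalization (adjusted p = 0.0141), on summed transcript RPKM (adjusted p = 0.0317) and in a fit of the compared groups alone (adjusted p = 0.0228), and turned to -0.07 with the GC and length trends taken out. The transcript that carries most Cd36 signal has a GC content of 38.7%, at percentile 5 of the tested genes.

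Cd36 is known from endothelium, macrophages, adipocytes and the pigment epithelium, so the markers of these cells stand beside it. The 10 endothelial markers summed to 223 to 272 CPM in P28 wild type, 250 to 275 in P28 knockout, 268 to 278 in 12-month wild type, and 236 to 263 in knockout at that age. None of the 10 was at 0 throughout a group, 1 of 10 rose with age in wild type, and 6 of 10 fell with age in knockout. Of all tested genes, 3.65% rose with age in wild type and 13.9% fell with age in knockout. The 10 microglial markers summed to 49 to 61.6, 55.1 to 66.4, 62.2 to 77.2 and 58.5 to 68.5 CPM in the same order, and of 7 tested 1 rose with age in wild type and 2 fell with age in knockout. The 10 pigment epithelium markers summed to 70.2 to 448, 112 to 200, 71.4 to 282 and 53.8 to 135 CPM, and 0 of 9 tested passed with age in either genotype. The 8 adipocyte markers summed to at most 8.66 CPM in any library. In 12-month knockout, where Cd36 was highest, the endothelial and adipocyte sums lay below those of 12-month wild type, and the microglial and pigment epithelium sums overlapped with them. Their part in the Cd36 result was not tested.

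Ppara (ENSMUSG00000022383, chromosome 15, 85734983 to 85802819, plus strand), the fatty acid sensor, was highest in young knockout retina. It read 12.5, 12.6 and 9.74 CPM in wild type at P28, against 16.2, 19.9 and 14.8 CPM in knockout. The 12-month libraries read 9.94, 9.09 and 10.4 CPM in wild type, against 11.4, 7.69 and 10.3 CPM in knockout. The 3 P28 knockout libraries thus lay above all 9 others. From P28 to 12 months, Ppara fell in knockout (log2 fold change -0.74 ± 0.16, adjusted p = 0.00615), with a 12-month mean at 0.577 times the P28 mean. In wild type the log2 fold change was -0.22 ± 0.16 (adjusted p = 0.501). The P28 genotype difference, 1.46 times in means, did not pass (log2 fold change 0.51 ± 0.16, adjusted p = 0.106), and at 12 months it was -0.01 ± 0.16 (adjusted p = 0.952).

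The coding transcript Ppara-202 held nearly all of this signal. It was at 3.44 ± 0.378 RPKM (reads per kilobase of transcript, scaled to library size, the authors' transcript unit; SD, n = 3) in P28 wild type, 4.64 ± 0.209 in P28 knockout, 2.95 ± 0.183 in 12-month wild type, and 2.93 ± 0.662 in knockout at that age. Ppara-201 and Ppara-203 were listed at 0 in every library. Transcript and gene values come from the same reads, so agreement between them adds no evidence.

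Cpt1a (ENSMUSG00000024900, chromosome 19, 3322334 to 3385733, plus strand), which encodes the liver-type carnitine palmitoyltransferase 1 and sets the pace of long-chain fatty acid entry, was the only member for which the difference between the genotype effects at the 2 ages passed the test. Its libraries read 178, 172 and 159 CPM in P28 wild type and 252, 228 and 219.6 CPM in P28 knockout. At 12 months they read 255, 258 and 288 CPM in wild type, against 212, 179 and 219 CPM in knockout. Knockout lay wholly above wild type at P28 and wholly below it at 12 months. Cpt1a was 1.37 times as high in knockout at P28 (log2 fold change 0.45 ± 0.10, adjusted p = 0.0397) and 0.761 times as high at 12 months (-0.40 ± 0.10, adjusted p = 0.00802). The difference between the 2 genotype effects was -0.85 ± 0.14 (adjusted p = 0.041), where 0.176% of all tested genes passed, 0.0789% higher and 0.0971% lower.

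With age, Cpt1a rose 1.57-fold in wild type (log2 fold change 0.65 ± 0.10, adjusted p = 0.0014). In knockout the change was -0.20 ± 0.10 and did not pass (adjusted p = 0.129). The rise in wild type passed in all 17 alternative settings run for it. The P28 genotype call was lost in 10 of 17, among them the sex term (0.57, adjusted p = 0.119) and the omission of any 1 P28 library other than knockout library 2. The difference between ages was lost in 14 of 22 settings, among them the sex term. The 12-month call was lost in 1 of 17, when GC and length trends were removed (-0.21, adjusted p = 0.127). The groups with female libraries, P28 knockout and 12-month wild type, were also those with the higher Cpt1a means.

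The share of CPM from genes of the mitochondrial genome was also apart between genotypes, in opposite directions at the 2 ages. It was 7.36 to 9.31% in wild type and 4.56 to 7.08% in knockout at P28, and 7.36 to 8.29% in wild type and 9.94 to 12.6% in knockout at 12 months. The knockout libraries were thus on the low side at P28 and the high side at 12 months, as for Cd36 and opposite to Cpt1a. Its part in either result was not tested.

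Cpt1a-201, the main coding transcript, was at 39.7, 39.6 and 40.2 RPKM in P28 wild type and at 55.9, 40.7 and 50.4 RPKM in P28 knockout. It was at 55.8, 58.7 and 59.0 RPKM in 12-month wild type and at 48.8, 46.9 and 53.0 RPKM in 12-month knockout. As for the gene, knockout lay above wild type at P28, with library 2 only just above it, and below wild type at 12 months. The P28 and 12-month knockout libraries overlapped for this transcript, whereas those of the gene did not. Cpt1a-203, annotated as an intron-retaining form, held most of the remainder, at 5.78 ± 1.45, 10.4 ± 2.86, 11.1 ± 2.70 and 5.0 ± 1.40 RPKM in P28 wild type, P28 knockout, 12-month wild type and 12-month knockout (SD, n = 3).

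Cpt2 (ENSMUSG00000028607, chromosome 4, 107903981 to 107923610, minus strand), which reforms acyl-CoA inside the mitochondrion, passed in no comparison. Its means were 13.8 ± 2.51, 12.5 ± 1.37, 10.6 ± 1.04 and 10.7 ± 1.55 CPM in the same order of groups (SD, n = 3). The 12-month wild-type libraries, at 9.40 to 11.4 CPM, lay below the P28 ones, at 12.0 to 16.7 CPM, with a log2 fold change of -0.35 ± 0.15 (adjusted p = 0.224). The coding share of summed Cpt2 RPKM was 52.6% ± 1.52 in wild type and 34.2% ± 6.46 in knockout at 12 months (SD, n = 3), and the ranges, 50.9 to 53.9% and 28.9 to 41.4%, did not overlap. The rest was mostly Cpt2-206, a short form that retains an intron.

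Among the acyl-CoA dehydrogenases, which open the beta-oxidation cycle, Acadm rose with age, Acadvl was low in old knockout retina, and Acadl was flat. Acadm (ENSMUSG00000062908, chromosome 3, 153922357 to 153944632, minus strand) in wild type read 99.8, 91.9 and 90.1 CPM at P28 and 183, 179 and 175 CPM at 12 months. In knockout it was at 76.0, 102 and 74.2 CPM at P28 and at 184, 154 and 200.3 CPM at 12 months. Every 12-month library lay above every P28 library. The rise was 1.9-fold in wild type (log2 fold change 0.92 ± 0.12, adjusted p = 0.000628) and 2.14-fold in knockout (1.09 ± 0.12, adjusted p = 0.000102). Both passed in all 17 settings run for each. Genotype differences were -0.17 ± 0.12 at P28 (adjusted p = 0.438) and -0.0039 ± 0.12 at 12 months (adjusted p = 0.983).

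Coding Acadm-201 followed the gene with age, from 36.8 ± 3.45 to 61.7 ± 0.594 RPKM in wild type and from 29.3 ± 0.640 to 62.5 ± 2.96 RPKM in knockout (SD, n = 3). At P28 its libraries did not overlap between genotypes, at 33.0 to 39.6 RPKM in wild type and 28.7 to 30.0 RPKM in knockout, whereas those of the whole gene did. The intron-retaining forms Acadm-209 and Acadm-210 were also higher at 12 months. Acadm-209 moved from 8.92 ± 0.456 to 15.7 ± 1.1 RPKM in wild type and from 10.3 ± 2.63 to 24.4 ± 2.02 RPKM in knockout. Coding transcripts made up 49.1 to 54.4% of summed Acadm RPKM in group means, so close to equal amounts were assigned to forms not annotated as coding.

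Acadvl (ENSMUSG00000018574, chromosome 11, 70010183 to 70015411, minus strand) starts the breakdown of very long chains. It read 73.0, 67.9 and 49.8 CPM in P28 wild type, 81.1, 67.8 and 54.6 CPM in P28 knockout and 68.9, 72.6 and 73.1 CPM in 12-month wild type. In 12-month knockout it was at 37.8, 26.3 and 42.9 CPM, below all 9 other libraries. Its 12-month mean in knockout was 0.498 times that of wild type (log2 fold change -1.01 ± 0.19, adjusted p = 0.00328) and 0.526 times that of P28 knockout (-0.92 ± 0.19, adjusted p = 0.00457). The P28 genotype difference was 0.09 ± 0.19 (adjusted p = 0.818).

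The difference of the Acadvl genotype effect between ages was -1.10 ± 0.26 and did not pass (adjusted p = 0.0661), although it did without 12-month knockout library 3 (adjusted p = 0.0386) or P28 knockout library 3 (adjusted p = 0.0214). Removal of GC and length trends left a 12-month genotype difference of -0.58, which passed (adjusted p = 0.0359). Both coding forms were low in 12-month knockout. Acadvl-202 was at 24.1 ± 2.88 RPKM in 12-month wild type and 12.1 ± 4.53 RPKM in knockout, and Acadvl-201 was at 5.02 ± 1.28 and 2.76 ± 1.11 RPKM (SD, n = 3). The libraries of the 2 groups overlapped for neither form, and the coding share of Acadvl stayed at 71.1% ± 5.02 and 71.5% ± 1.43.

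Acadl (ENSMUSG00000026003, chromosome 1, 66830839 to 66863277, minus strand) passed nowhere. Its group means were 18.1 ± 1.48, 16.8 ± 1.67, 19.5 ± 2.03 and 20 ± 2.72 CPM (SD, n = 3), and the libraries overlapped in all 4 genotype and age comparisons. The log2 fold changes ran from -0.10 ± 0.13 between genotypes at P28 (adjusted p = 0.702) to 0.23 ± 0.13 with age in knockout (adjusted p = 0.186).

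The subunit genes of the trifunctional protein parted in 12-month knockout. Hadha (ENSMUSG00000025745, chromosome 5, 30118304 to 30155162, minus strand), the alpha subunit with hydratase and dehydrogenase activity, read 68.4, 69.6 and 60.4 CPM in wild type at P28, against 84.4, 71.5 and 69.8 CPM in knockout. The 12-month libraries read 56.7, 56.5 and 54.7 CPM in wild type, against 51.7, 43.7 and 56.6 CPM in knockout. The P28 knockout libraries lay above and the 12-month libraries below those of P28 wild type. Hadha fell with age in knockout (log2 fold change -0.56 ± 0.11, adjusted p = 0.00338), while the wild-type change was -0.23 ± 0.11 (adjusted p = 0.258). The genotype differences, 0.18 ± 0.11 at P28 (adjusted p = 0.351) and -0.15 ± 0.11 at 12 months (adjusted p = 0.293), did not pass.

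Hadhb (ENSMUSG00000059447, chromosome 5, 30155248 to 30184593, plus strand), the beta subunit with thiolase activity, read 90.4, 86.5 and 79.5 CPM in wild type at P28, against 88.1, 71.7 and 96.8 CPM in knockout. The 12-month libraries read 71.4, 77.5 and 68.0 CPM in wild type, against 101, 106 and 95.2 CPM in knockout. Old knockout libraries lay above old wild-type ones, whereas the P28 groups overlapped. Hadhb was 1.39 times as high in knockout at 12 months (log2 fold change 0.47 ± 0.11, adjusted p = 0.00616) and did not differ detectably at P28 (-0.01 ± 0.11, adjusted p = 0.977). The difference between these effects was 0.48 ± 0.15 (adjusted p = 0.0938), and it passed without P28 knockout library 3 (adjusted p = 0.0279). The only annotated copy named for a member, Hadhb-ps, reached at most 0.193 CPM.

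The ratio of Hadhb to Hadha within a library, a comparison chosen after the values were seen, was 1.32, 1.24 and 1.32 in P28 wild type and 1.26, 1.37 and 1.24 in 12-month wild type. It was 1.04, 1.0 and 1.39 in P28 knockout and 1.95, 2.43 and 1.68 in 12-month knockout. The 3 old knockout libraries stood above the 9 others. The ratio is free of the scaling between libraries and carries no test here.

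By transcript RPKM, an intron-retaining form of Hadhb differed most between the 12-month genotypes. RPKM divides by length, so a short form weighs more in it than in the CPM of the gene. How much of the CPM difference each form holds was not worked out. Hadhb-207, 425 bases long, was at 6.45, 7.53 and 3.79 RPKM in 12-month wild type and at 12.9, 21.3 and 13.0 RPKM in 12-month knockout. The main coding form, Hadhb-201, was at 25.2, 29.3 and 26.6 RPKM in wild type and at 28.3, 27.0 and 29.0 RPKM in knockout, with overlapping libraries. Hadhb-203, a lesser coding form, was at 5.73 ± 0.242 and 7.60 ± 0.736 RPKM. All coding Hadhb forms together summed to 32.8 ± 1.95 and 35.7 ± 1.69 RPKM. Their share of summed Hadhb RPKM was 73.7% ± 1.99 in wild type and 60.7% ± 5.53 in knockout (SD, n = 3). Transcripts of 1 gene share exons, so how reads were split between them is an estimate by the quantifier.

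Hadha signal was assigned mostly to forms that are not annotated as coding. Hadha-205, its only coding transcript in this annotation, held 6.49 to 9.57% of summed RPKM in group means. It was at 3.70, 3.19 and 3.78 RPKM in 12-month wild type and at 2.19, 2.0 and 2.33 RPKM in 12-month knockout, without overlap, although the whole gene did overlap. Hadha-201, listed as a processed transcript, was at 8.79 ± 1.07 and 4.56 ± 2.17 RPKM, and intron-retaining Hadha-208 at 11.1 ± 2.17 and 11 ± 0.993 RPKM (SD, n = 3). Hadha-205 is 4017 bases long, against 708 for Hadha-208, so its share of the reads behind the gene's CPM is larger than its share of RPKM. That share was not worked out. A gene-level CPM for Hadha mixes these forms and is no measure of its coding message alone.

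**Figure D2:**
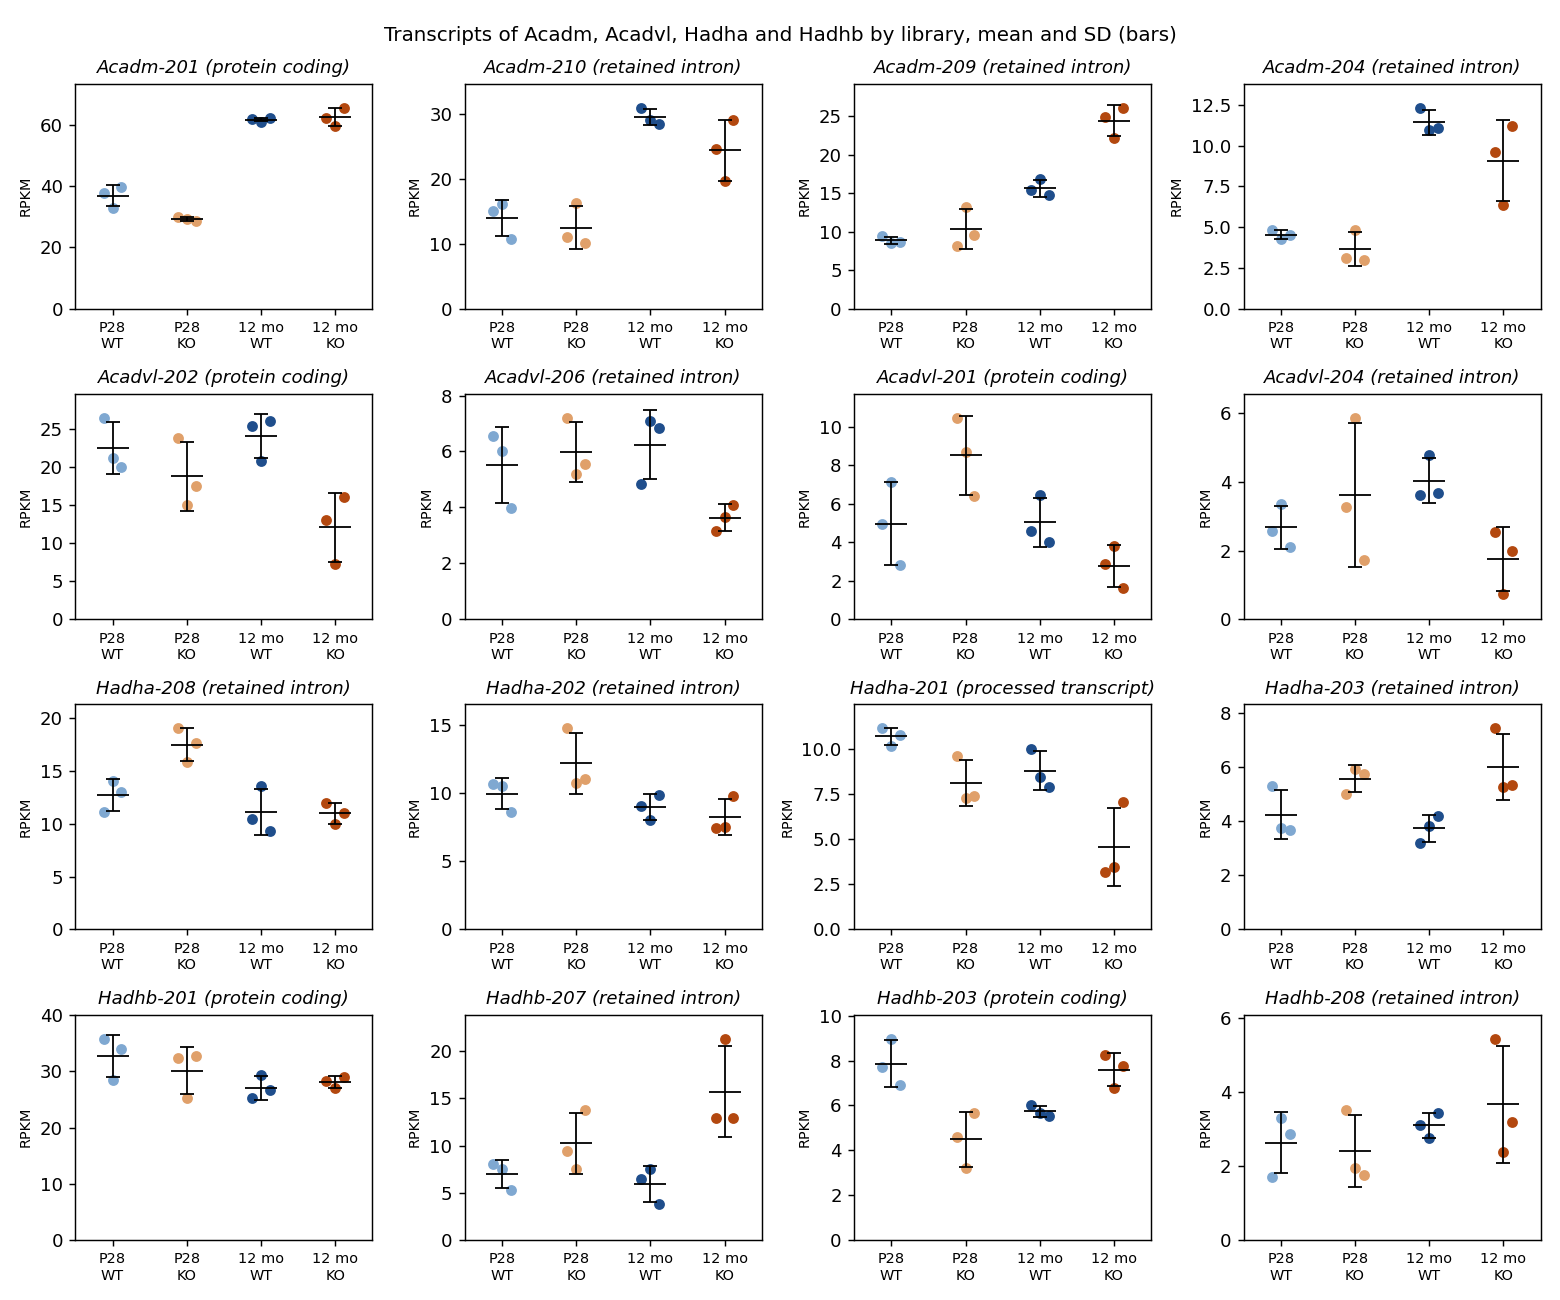
RPKM of 16 transcripts, the 4 of highest mean for each of Acadm, Acadvl, Hadha and Hadhb, in each of the 12 libraries, 1 panel per transcript with its own linear axis from 0. Points are libraries and bars are means with SD (n = 3 per group; WT, wild type; KO, knockout). Hadhb-201 overlaps between the 12-month groups, whereas Hadhb-207 runs from 3.79 to 7.53 RPKM in wild type and from 12.9 to 21.3 RPKM in knockout.

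Over the 9 genes, 63 transcripts are listed, 27 of them coding and 26 intron-retaining, and 28 had a mean of at least 1 RPKM. Cd36, Ppara and Acadl have no intron-retaining form in the annotation. All Cd36 forms are coding, and Cd36-203 and Cd36-202 together carried the age difference. Cd36-203 moved from 0.766 ± 0.270 to 1.88 ± 0.410 RPKM in wild type and from 0.231 ± 0.401 to 2.63 ± 0.217 RPKM in knockout (SD, n = 3). Cd36-206 went the other way in knockout, at 0.492 ± 0.424 RPKM at P28 and 0.00762 ± 0.0074 RPKM at 12 months, but its P28 libraries spread from 0.033 to 0.869 RPKM.

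Per unit of transcript length, the medium-chain dehydrogenase led in 3 of 4 groups when all forms of a gene were summed. On coding forms alone, Acadm had the highest mean at 12 months only. In P28 wild type its coding mean was 36.8 RPKM, against 41 for Hadhb and 39.9 for Cpt1a. In P28 wild type the summed transcript RPKM was 67.7 for Acadm, 53.9 for Hadhb, 46.3 for Cpt1a, 44.0 for Hadha, 37.3 for Acadvl, 10.6 for Cpt2, 9.63 for Acadl, 3.52 for Ppara and 1.61 for Cd36. Cpt1a, Hadha and Acadvl overlapped with their neighbours in that order, as did Cpt2 and Acadl. In P28 knockout Cpt1a (60.6 ± 5.87) and Acadm (58.6 ± 8.19) led with overlapping libraries (SD, n = 3). In 12-month wild type Acadm reached 126 ± 1.94 RPKM, ahead of Cpt1a at 69.9 ± 3.85, and no neighbours in the order overlapped. In 12-month knockout Acadm was at 128 ± 13.0 RPKM, and Hadhb (59.0 ± 2.86) and Cpt1a (56.1 ± 4.01) followed with overlapping libraries. Cd36 was last at P28 and passed Ppara by 12 months in both genotypes, at 3.99 against 2.95 RPKM in wild type and 5.42 against 2.98 RPKM in knockout.

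**Figure D3:**
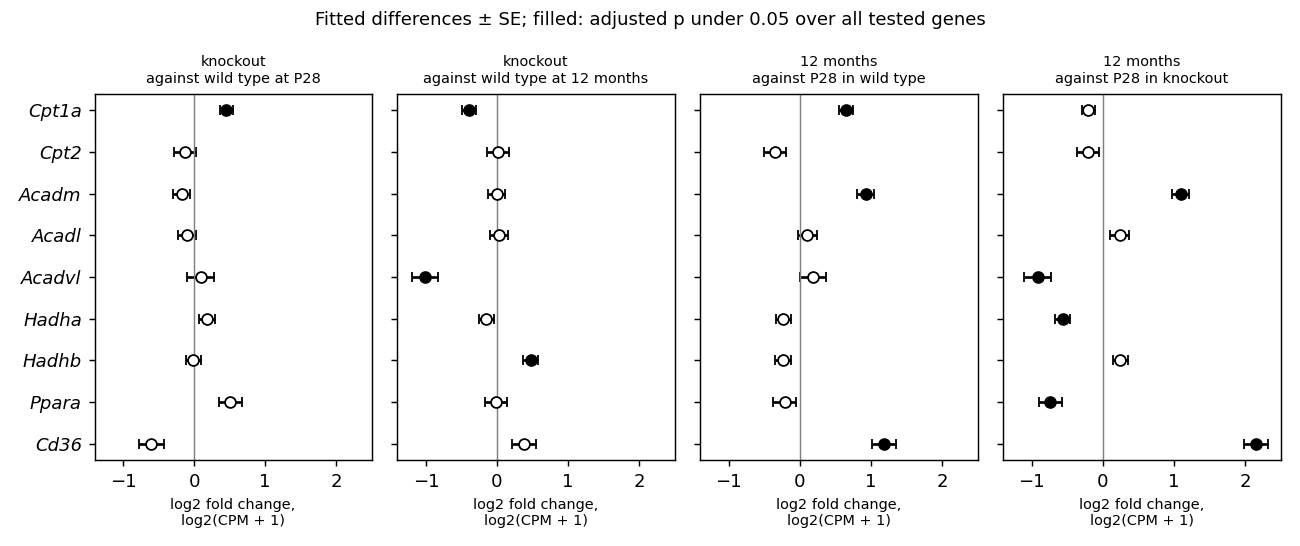
Log2 fold changes of the 9 genes on the log2(CPM + 1) scale in the 4 genotype and age comparisons. Points are limma estimates and error bars are their standard errors, with filled points for adjusted p under 0.05. Cd36 lies farthest to the right in both age comparisons, at 1.18 and 2.16, and Acadvl farthest to the left between genotypes at 12 months, at -1.01.

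Groups without overlapping libraries were found for 4 of 9 genes between genotypes at P28 (23.8% of all genes tested), 4 at 12 months (59.1%), and 6 with age in each genotype (34.9% in wild type and 36% in knockout). At P28 these were Cpt1a, Hadha and Ppara, above wild type, and Cd36, below it. Only Cpt1a among them passed the test.

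The other genes of the pathway, 88 in 7 lists of which 77 were tested, moved little at P28 and with age in wild type. Between genotypes at P28, 0 of 77 passed with limma, 9 were at an unadjusted p under 0.05, and 5 passed without P28 knockout library 2 and 1 without P28 knockout library 1. With age in wild type 3 of 77 passed, 3.9% against 5.4% of all tested genes, and 1 did without 12-month wild-type library 1 or 2 or without P28 wild-type library 1 or 3. The carnitine-acylcarnitine carrier Slc25a20, which stands between CPT1 and CPT2, was the one that rose. It was at 10.5, 9.98 and 11.1 CPM at P28 and at 18.5, 19.5 and 17.6 CPM at 12 months in wild type (log2 fold change 0.76, adjusted p = 0.000663). In knockout it was at 9.40, 9.23 and 10 CPM and at 17.1, 15.5 and 16.6 CPM (0.72, adjusted p = 0.00057). Its P28 and 12-month libraries were apart in both genotypes. Acat1, a mitochondrial thiolase, and Ppargc1b, a coactivator of mitochondrial genes, fell with age in wild type (-0.40, adjusted p = 0.0493, and -0.87, adjusted p = 0.0492).

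With age in knockout, 5 of 77 rose and 14 fell, or 6 and 9 with quantile normalization. These are 24.7% of the 77 genes, 6.49% higher and 18.2% lower, against 27.2% of all tested genes, so the counts that follow describe single genes and set no list apart. Calls numbered 8 without P28 knockout library 1, 11 without 12-month knockout library 1 and 9 without 12-month knockout library 2. Ppargc1b fell from 17.7 ± 6.04 to 5.21 ± 1.27 CPM (SD, n = 3; log2 fold change -1.56, adjusted p = 0.000798). The ketone body enzymes Bdh1 and Oxct1 fell (-1.01, adjusted p = 0.00224, and -0.68, adjusted p = 0.00795), 2 of 4 genes of that list, and 0 rose. Of 11 peroxisomal genes, Acaa1a and Scp2, both thiolases, fell (-1.16, adjusted p = 0.00224, and -0.32, adjusted p = 0.0463) and 0 rose. Fabp4, a fatty acid binding protein, rose (1.04, adjusted p = 0.00575), 1 of 2 rises against 5 falls among 16 uptake and activation genes. Of 17 mitochondrial beta-oxidation genes, only Etfdh, which passes electrons to ubiquinone, changed, and it rose (0.29, adjusted p = 0.0198).

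Between genotypes at 12 months, 9 of 77 were higher and 23 lower in knockout, with a median log2 fold change of -0.20 against -0.03 over all tested genes. The calls are 41.6% of the 77 genes, 11.7% higher and 29.9% lower, close to the 39.6% of all tested genes, so the counts by list describe these genes and set none of the lists apart. Calls numbered 16 without 12-month knockout library 2 and 19 without 12-month wild-type library 1 or 3. Of 16 uptake and activation genes, 2 were higher and 4 lower, among the latter the fatty acid transporters Slc27a1 (-1.07, adjusted p = 0.00298) and Slc27a4 (-0.87, adjusted p = 0.00471). Slc27a1 read 32.1, 27.7 and 34.1 CPM in wild type, against 13.8, 11.5 and 18.6 CPM in knockout. Of 6 genes of the carnitine shuttle 3 were lower and 0 higher, among them carnitine acetyltransferase Crat (-0.88, adjusted p = 0.0186) and Cpt1c (-0.46, adjusted p = 0.0275). Of 17 mitochondrial beta-oxidation genes 3 were lower, among them the hydratase Echs1 (-0.30, adjusted p = 0.0362), and Etfdh was higher (0.24, adjusted p = 0.0355).

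Of 11 peroxisomal genes 4 were lower, among them Acaa1a (-1.02, adjusted p = 0.00404), Acox3 (-0.65, adjusted p = 0.00695) and Scp2 (-0.63, adjusted p = 0.00297), and 1 was higher. Bdh1, a ketone body dehydrogenase gene, was lower (-0.65, adjusted p = 0.0136). Of 17 regulators 4 were higher and 6 lower. The coactivator Ppargc1a was higher (0.44, adjusted p = 0.00364), as was the AMP-activated kinase subunit Prkaa1 (0.52, adjusted p = 0.00465). Ppargc1b was at -0.61 and did not pass (adjusted p = 0.0531). Naming by smallest p left the 6 lower regulators unnamed, so the named ones do not stand for the list. Of 6 tested PPAR target genes, the uncoupling protein gene Ucp2 was lower (-1.45, adjusted p = 0.00465) and the lipoprotein receptor gene Vldlr higher (0.29, adjusted p = 0.0182), while Acot1 passed in no comparison.

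The 12-month genotype calls of these pathway genes depended on how the values were processed. With GC and length trends removed from each library, 2 of 77 passed between genotypes at 12 months, Slc27a1 and Scp2, both lower, and the share of all genes called went from 39.6% to 6.57%. The cause of the trends was not tested. In the same setting Acadvl and Hadhb passed (adjusted p = 0.0359 and 0.0373) and Cpt1a did not. At 12 months 6 of 10 rod markers, 5 of 10 endothelial, 5 of 7 tested microglial and 2 of 10 Müller glia markers were also lower in knockout and 0 higher. Of all tested genes, 23.5% were lower and 16.1% higher in that comparison. Rod markers summed to 36600 to 43800 CPM in 12-month wild type, against 22300 to 29300 CPM in 12-month knockout. Their sums were apart at P28 as well, at 32600 to 43600 CPM against 23000 to 28700 CPM, but 0 of 10 rod markers passed there. The sums of 5 erythrocyte markers were also lower in knockout at both ages, at 32.5 to 49.6 CPM against 12.6 to 23.6 CPM at P28 and at 19.2 to 34.1 CPM against 4.33 to 9.94 CPM at 12 months. Their part in these results was not tested. With a sex term, Acadvl, Hadhb and Cpt1a passed at 12 months (adjusted p = 0.00844, 0.022 and 0.00936).

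**Figure D4:**
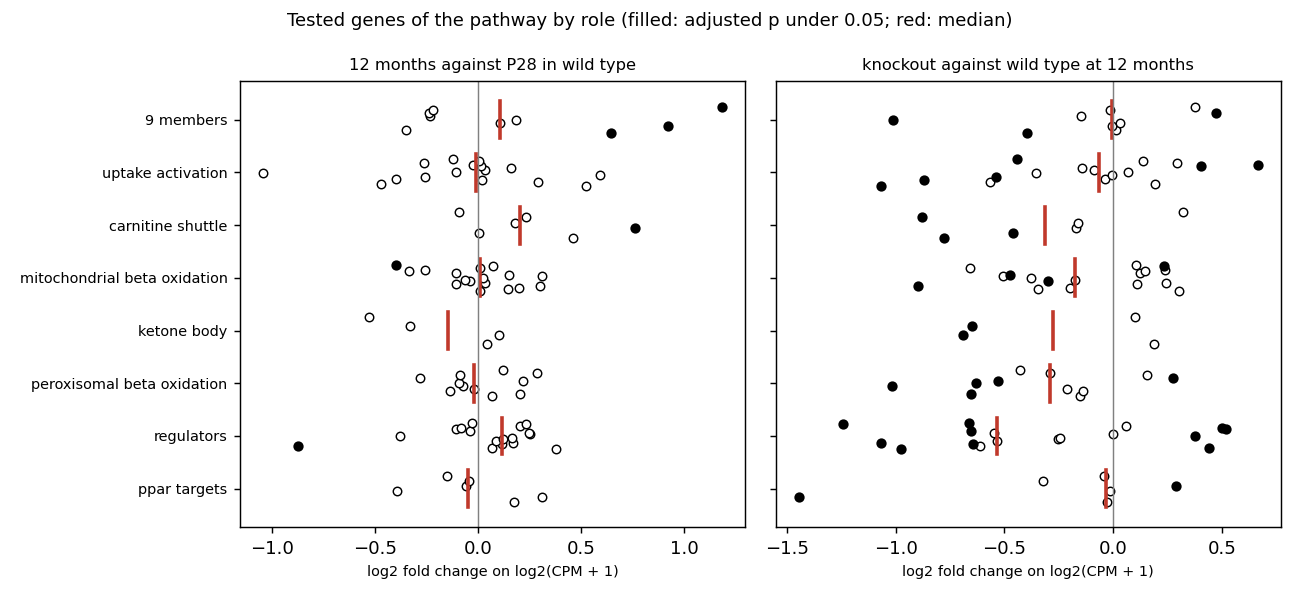
Log2 fold changes on the log2(CPM + 1) scale of the 9 genes and of the tested genes of 7 pathway lists, with age in wild type (left) and between genotypes at 12 months (right). Each point is 1 gene, filled where adjusted p was under 0.05, and red lines are medians. Beyond the 9 genes, 3 of 77 points are filled on the left and 32 of 77 on the right, 23 of the latter below 0.

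For each gene, the tested gene with the most similar profile was found by the root-mean-square distance between log2(CPM + 1) values over the 12 libraries, each centred on its own mean. The nearest to Hadhb was Klhl7, a ubiquitin ligase adaptor gene (distance 0.0681, against a median of 0.322 over all genes). Pomt2 was nearest to Hadha (0.069, median 0.34), Lpin2 to Ppara (0.0831, median 0.423), Adcy6 to Acadvl (0.0973, median 0.49) and AW011738 to Acadm (0.0866, median 0.586). Derl1 was nearest to Acadl (0.078), Xrcc4 to Cpt2 (0.107) and Zfat to Cpt1a (0.109). Maob, the monoamine oxidase B gene, was nearest to Cd36 at 0.196 against a median of 0.932, and its own CPM ran from 1.89 to 11.3. The closest gene to a member was never another member by construction, since members were left out of the search.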

How the data were processed

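Whole-retina poly(A) RNA was measured in 12 libraries. Per the series text, the authors quantified reads with kallisto 0.45.0 on Ensembl 102, summarised them to genes with tximport 1.30.0 and scaled them with edgeR 4.0.3. That text names a human build, while the deposited identifiers are mouse. As gene signal the authors deposited CPM on TMM-scaled libraries, not logged, with column sums 0.93 to 1.1 times those of plain CPM. Only 10.8 to 28.5% of low values were whole reads to within 0.01 reads, so counts were not recovered and no count model was run. The transcript values were deposited by the authors as RPKM, and how they were made is not given in the sources used here.

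limma 3.58.1 (R 4.3.3) was run on log2(CPM + 1) for the 16486 genes that reached a CPM of 1 in 3 or more of 12 libraries. The fit had 4 group means and an eBayes trend. Benjamini-Hochberg adjustment ran over all genes tested, at 0.05. Fold changes on this scale understate those of low genes, Cd36 at P28 among them. The contrasts were genotype at each age, age in each genotype and the difference of the genotype effect between ages. Alternatives were pseudocounts of 0.1 and 5, 2 other filters, 2 other scalings, summed transcript RPKM, fitting the compared groups only, a replicate block, a sex term (female: Xist over 100 CPM), removal of GC and length trends (splines with 5 degrees of freedom; 98.2% of tested genes had both values) and leaving out each library. The steps were tested on simulated data.

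The members, the pathway and marker lists and the tests were chosen with earlier results of these data known. Named are the 9 members, up to 3 genes per pathway list by smallest p, and the nearest gene to each member, leaving out symbols of Gm with digits, those ending in Rik and those with a dot. A gene that this rule names is not reported here. Of 88 other pathway genes, 11 lay below the filter. Upstream sequences are from RefSeq (GRCm38.p6), and gene coordinates are those of the deposited tables. Python 3.11.15 made the tables and figures, with pandas 2.3.3, numpy 2.4.6 and matplotlib 3.10.9. Raw reads were not analysed here.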

Additional observations from a re-analysis of the deposited data

Results flagged for a closer look

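Cpt1a stands out because the difference between its genotype effects at the 2 ages passed the test of that difference itself. On the log2 scale the knockout effect was 0.45 at P28 and -0.40 at 12 months, and the difference was -0.85 (limma, adjusted p = 0.041). All 3 knockout libraries lay above wild type at P28 and all 3 below it at 12 months. The call was kept in 8 and lost in 14 of 22 alternative settings. It was lost with the sex term, where 0 of 16486 genes passed for this difference. Sex followed the same pattern, since only P28 knockout and 12-month wild type, where Cpt1a was higher, held female libraries.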

How the results depend on the processing

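The age calls of the members were the firmest. In wild type 3 members passed in every alternative, and in knockout 5, or 6 without P28 knockout library 3. Between genotypes at 12 months 2 to 4 passed. At P28 the 1 call became 0 with no filter, quantile normalization, the compared groups only, the replicate block and the sex term, and ranged from 0 to 2 when 1 library was left out. For the difference between ages the 1 call became 0 with no filter, summed RPKM, the block, the sex term and trends removed, and ranged from 0 to 4 when 1 library was left out. The causes were not tested.

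Replicate numbers are shared by the groups, and deviations of same-numbered libraries correlated between -0.33 and 0.308. The labels do not say whether same-numbered libraries share more than a number. In the comparison of genotypes at 12 months each library matched its own number best, while in the other comparisons only the libraries numbered 1 did. With the block, calls over all genes were 59, 5907, 667, 3827 and 4, against 246, 6536, 891, 4483 and 29 without it, for genotype at P28 and 12 months, age in wild type and knockout, and the difference. It changed no other count of members.

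Calls over all genes between genotypes at P28 were 1 with the sex term and 67 with no filter. At 12 months they were 1064 with trends removed. The 19 other pathway genes called with age in knockout became 11 with trends removed or the sex term, 9 with no filter and 6 with the compared groups only. The 3 called in wild type became 5 with trends removed or quantile normalization, 9 with the compared groups only and 1 with a pseudocount of 0.1 or the sex term.

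Directions that turned all belonged to differences that did not pass. With median-of-ratios rescaling they were Hadhb at P28 (0.0101) and Acadm (0.0440) and Ppara (0.0290) between genotypes at 12 months. With quantile normalization Ppara was at 0.25 at 12 months. On summed RPKM Cpt2 was at -0.0318, Acadm at 0.0172 and Ppara at 0.0013 at 12 months. With the sex term Acadm was at 0.0733. With trends removed Hadhb was at 0.0306 at P28, Acadl at -0.11, Hadha at 0.0116, Ppara at 0.20 and Cd36 at -0.0701 at 12 months, and the Acadl difference between ages at -0.0532. Leaving out 1 library gave -0.0871 to 0.10 for Acadm, -0.0925 to 0.0755 for Cpt2, -0.0662 to 0.12 for Acadl and -0.12 to 0.13 for Ppara at 12 months. At P28 it gave -0.22 to 0.0055 for Cpt2, -0.10 to 0.11 for Hadhb and -0.0718 to 0.24 for Acadvl. With 3 libraries a group, small differences such as those of Cpt2 and Acadl were not detectable.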
